A study of Mus musculus with 24 samples.

Results

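The genes described here are 8 mouse liver genes that belong to the fasting and fatty acid oxidation programme of the nuclear receptor PPARα. They are Ppara, which encodes the receptor, and 7 of its known target genes, namely Cpt1a, Ehhadh, Cyp4a14, Acot1, Pdk4, Vnn1 and Fgf21. They were chosen by name. All 8 were found among the 21755 genes of the table for p16-3MR livers, and 6 among the 12643 gene labels of the table for WT livers. The labels of the WT table had lost 9 letters of the alphabet, so that the label of Acot1 could also be that of Actg1 or Actn1 and the label of Vnn1 that of Vgll1, Vmo1 or Vsnl1. No WT value is given for these genes.

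PPARα is a ligand-activated transcription factor of hepatocytes. Fatty acids released from fat tissue during fasting bind it, and together with its partner RXRα it occupies direct repeats of a short motif near genes that burn fat. CPT1A then admits fatty acids into mitochondria, EHHADH works in the peroxisomal chain that shortens long fatty acids, CYP4A14 hydroxylates their far end, and ACOT1 releases free fatty acids from coenzyme A in the cytosol. PDK4 closes the entry of pyruvate into the mitochondrial cycle, VNN1 is a pantetheinase that recycles the vitamin part of coenzyme A, and FGF21 is a hormone that the fasted liver secretes. The programme follows feeding and the time of day, and several of its genes differ between male and female livers.

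RNA of 24 livers was measured by Smart-3SEQ, an assay of message 3′ ends, to ask what removal of p16-expressing cells does to the aged liver of each sex. In the first batch, 12 livers came from p16-3MR mice of both sexes, which were injected from 16 to 18 months of age with ganciclovir (GCV) or vehicle (VEH, water of high pH) on 5 consecutive days of each month and were collected at about 28 months. GCV was given at 150 mg/kg according to the labels, whereas the methods state a different dose. In the second batch, 12 livers came from WT mice that received GCV or VEH monthly from 6 months of age, and these were collected after 3 months. Each of the 8 groups of sex, genotype and treatment held 3 livers, described as biological replicates. All p16-3MR mice, VEH mice included, carry a bacterial artificial chromosome with the p16 (Ink4a) regulatory region driving a cassette that includes a viral thymidine kinase, which turns GCV into a toxin in any cell type that expresses p16. WT mice lack the cassette, so GCV acts in them without that enzyme. Genotype, batch, age and length of treatment cannot be told apart, and every test below stays within 1 table.

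The genes lie on 8 chromosomes, and all are annotated as protein coding (GENCODE, GRCm38). Ppara spans chr15:85734983-85802819 on the plus strand, Cpt1a chr19:3322334-3385733 on the plus strand, and Ehhadh chr16:21761287-21787807 on the minus strand. Cyp4a14 spans chr4:115486200-115496142 on the minus strand, next to close relatives of its family. Acot1 spans chr12:84009490-84018371 on the plus strand, Pdk4 chr6:5483351-5496309 on the minus strand, Vnn1 chr10:23894688-23905343 on the plus strand, and Fgf21 chr7:45613886-45615490 on the minus strand. The values count reads at the 3′ end of each gene and carry no information on the exons upstream.

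Promoters are shown because the genes are known for a shared response element. Whether such an element bears on the levels described below was not tested. The 250 bases before the RefSeq start (GRCm38.p6) are printed for the receptor, a mitochondrial enzyme (Cpt1a), a peroxisomal enzyme (Ehhadh) and the hormone. They are also printed for Fabp1, a fatty acid carrier and classical PPARα target whose promoter holds a near repeat of the receptor's motif. Ppara lies at chr15:85735526-85735775, Cpt1a at chr19:3323051-3323300, Ehhadh at chr16:21787835-21788084, Fgf21 at chr7:45615491-45615740 and Fabp1 at chr6:71199629-71199878. Each is written 5′ to 3′ on the strand of its gene, and capitals mark matches to the motifs named after them.
Ppara: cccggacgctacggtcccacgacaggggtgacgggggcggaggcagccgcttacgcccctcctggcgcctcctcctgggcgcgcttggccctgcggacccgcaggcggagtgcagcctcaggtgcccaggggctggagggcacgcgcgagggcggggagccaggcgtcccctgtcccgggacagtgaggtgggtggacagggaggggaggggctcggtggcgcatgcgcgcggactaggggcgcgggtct
Cpt1a: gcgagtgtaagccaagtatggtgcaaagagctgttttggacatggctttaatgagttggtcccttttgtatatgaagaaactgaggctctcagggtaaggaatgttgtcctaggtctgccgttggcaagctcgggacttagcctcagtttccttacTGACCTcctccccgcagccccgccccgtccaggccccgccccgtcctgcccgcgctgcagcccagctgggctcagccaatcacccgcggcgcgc
Ehhadh: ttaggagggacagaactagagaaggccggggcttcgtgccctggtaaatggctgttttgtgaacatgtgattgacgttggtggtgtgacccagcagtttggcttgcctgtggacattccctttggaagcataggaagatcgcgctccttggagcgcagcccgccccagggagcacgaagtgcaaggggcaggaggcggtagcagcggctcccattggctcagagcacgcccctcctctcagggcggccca
Fgf21: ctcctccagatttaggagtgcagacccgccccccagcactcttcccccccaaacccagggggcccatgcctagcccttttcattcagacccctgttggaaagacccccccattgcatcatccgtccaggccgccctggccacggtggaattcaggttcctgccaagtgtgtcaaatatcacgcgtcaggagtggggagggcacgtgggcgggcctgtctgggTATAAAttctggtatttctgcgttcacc
Fabp1: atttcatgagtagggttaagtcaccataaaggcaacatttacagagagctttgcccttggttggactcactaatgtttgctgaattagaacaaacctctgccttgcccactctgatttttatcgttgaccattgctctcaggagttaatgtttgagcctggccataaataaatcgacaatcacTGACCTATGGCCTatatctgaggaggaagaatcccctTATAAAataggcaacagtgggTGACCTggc

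Both strands were searched for AGGTCANAGGTCA, for its relaxed form AGGNCANAGGNCA, for the single motif AGGTCA and for TATAAA. Of 32851 promoters of the same length, the repeat was found in 0.0335%, the relaxed repeat in 0.338%, AGGTCA in 14.02% and TATAAA in 12.37%. Cpt1a holds 1 AGGTCA on the minus strand, printed as TGACCT, 94 to 89 bases before the start. Fgf21 holds TATAAA 28 to 23 bases before the start. Fabp1 holds the relaxed repeat, printed as TGACCTATGGCCT, 67 to 55 bases before the start, and its first 6 bases are also counted as a match to AGGTCA. It further holds TATAAA 30 to 25 bases and another AGGTCA 9 to 4 bases before the start. No match was present in these windows of Ppara and Ehhadh, nor in those of Acot1 and Pdk4, which were also searched, and 76.4% of the bases in the Ppara window are G or C. Promoters of Cyp4a14 and Vnn1 were not analysed here.

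Library totals ran from 5005760 to 7160172 counts in the p16-3MR table and from 3084517 to 5667904 in the WT table, and the common biological coefficient of variation was 55.8% and 16.6%, respectively. Levels are given as counts per 1000000 (CPM), scaled by TMM factors. A level of 3 counts, taken as the limit that a count of 0 allows, corresponded to 2.32 CPM in p16-3MR liver 33 and to 0.293 to 0.943 CPM in the other livers of both tables. In liver 33 (female, GCV), 64.0% of counts came from mitochondrially encoded genes, against 12.3% to 22.4% in the other p16-3MR livers. Its TMM factor was 0.259, against 0.850 to 1.80 in the other p16-3MR livers. Livers 32 (male, GCV) and 24 (male, VEH) had the lowest sums of 8 hepatocyte markers, with 28004 and 43901 CPM against 84944 to 163348 in the rest, and the highest sums of 6 Kupffer cell markers, with 2828 and 1683 CPM against 107.5 to 932. In WT livers, 2 of the 8 hepatocyte markers had a label of their own and summed to 9601 to 12020 CPM. Cdkn2a, the gene that encodes p16, was at 0 to 7 counts in p16-3MR livers, too few to check the removal of p16-expressing cells.

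In p16-3MR livers, the mean level of 7 of the 8 genes was lower after GCV than after VEH in females, and that of all 8 in males, but none of the differences passed the test and the GCV and VEH livers of each gene overlapped. By the quasi-likelihood test of edgeR, with Benjamini-Hochberg correction across every gene of the table, 0 of 8 were called at an adjusted p below 0.05 in either sex, against 0.0% of all genes in females and 0.0% in males. DESeq2 called 0 of 8 as well, where it called 0.397% of all genes in females and 0.0231% in males. The largest differences were in Cyp4a14, with a log2 fold change of -2.48 in females and -2.60 in males.

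At an unadjusted p below 0.05, 1 of 8 genes was lower in females, where 2.32% of all genes were, and 2 of 8 were lower in males, where 0.814% of all genes were. The fold change was below 0 for 49.8% of all genes in females and 45.5% in males, and for 53.6% and 47.4% of the genes with a mean of at least 10 counts. The median log2 fold change of the 8 genes was -0.75 in females and -1.29 in males, beside 0 and 0.04 over all genes. The 8 genes were measured in the same livers, so they are not independent of each other.

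**Figure D1:**
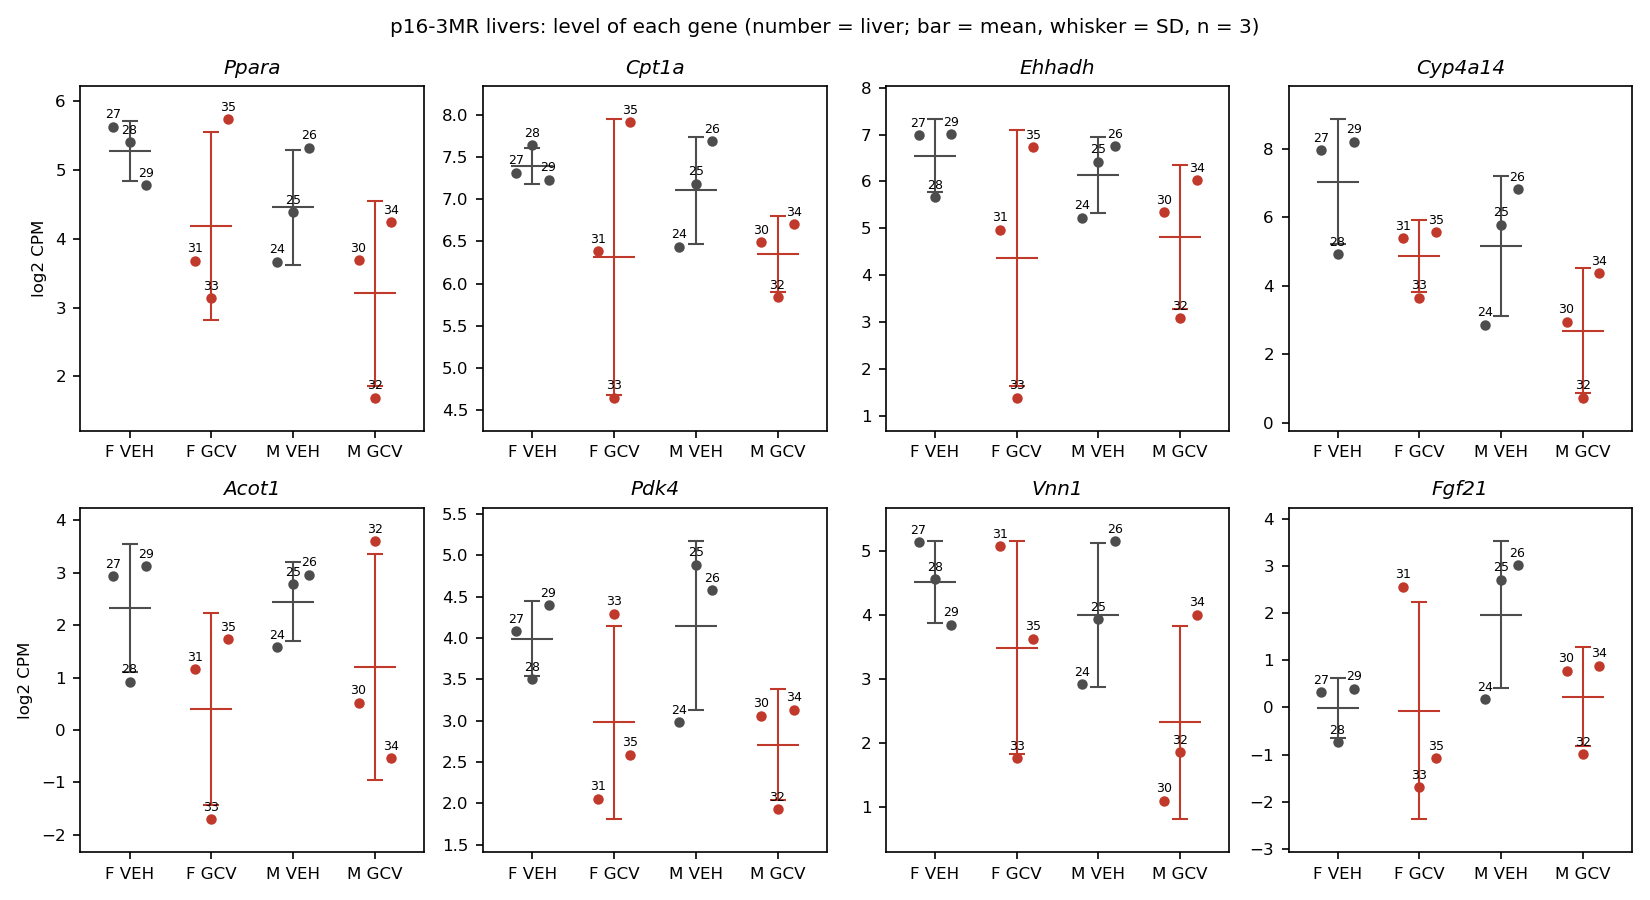
Level of each gene in the 12 p16-3MR livers (log2 CPM), by sex and treatment. Points are livers, dashes are group means and error bars are SDs. GCV and VEH livers of a sex overlap in every panel, and livers 32 and 24 lie among the lowest males in each gene except Acot1.

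Ppara itself, the receptor gene, was at 49.1, 42.0 and 27.2 CPM in female VEH livers and at 12.5, 8.5 and 52.8 CPM in female GCV livers. The highest female liver was thus a GCV liver and the lowest 2 were the other GCV livers. In males, Ppara was at 12.4, 20.5 and 39.7 CPM after VEH and at 12.5, 2.93 and 18.6 CPM after GCV. All 3 GCV livers were below the 2 higher VEH livers, while VEH liver 24 was level with GCV liver 30. Its log2 fold change was -0.64 (SE 0.70, edgeR adjusted p = 0.814) in females and -1.10 (SE 0.71, adjusted p = 1) in males. With 1 liver left out, it ran from -1.87 (without GCV liver 35) to -0.32 (without GCV liver 31) in females and from -1.66 (without GCV liver 34) to -0.54 (without VEH liver 26) in males. Rxra, which encodes the partner receptor, was far more even, with 112 to 200 CPM over the female and 116 to 184 CPM over the male livers.

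Cpt1a encodes the gate of mitochondrial fatty acid oxidation. Female VEH livers had 159, 199 and 150 CPM, and female GCV livers 83.1, 24.7 and 241 CPM. Male VEH livers had 86.5, 145 and 206 CPM, and male GCV livers 89.9, 57.0 and 104 CPM. The lowest values of each sex belonged to livers 33 and 32, the livers that stood apart in RNA composition. The log2 fold change of Cpt1a was -0.54 (SE 0.62) in females and -0.81 (SE 0.62) in males, with adjusted p = 0.815 and 1 in edgeR's test. Without livers 33, 32 and 24, it was -0.09 in females, and with 1 liver left out the female value ran from -1.64 (without GCV liver 35) to -0.13 (without liver 33). The male value ran from -1.07 to -0.47 with 1 liver left out.

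Ehhadh, the peroxisomal bifunctional enzyme, was at 126, 50.4 and 129 CPM in female VEH livers and at 31, 2.32 and 106 CPM in female GCV livers. In liver 33 this level rests on 3 counts. In males, it was at 37.1, 85.4 and 108 CPM after VEH and at 40.2, 8.20 and 65.1 CPM after GCV. As for Ppara, the low male livers were 32, 24 and 30, which come from both treatments. Ehhadh had a log2 fold change close to -1 in both sexes, with -1.11 (SE 0.91) in females and -1.02 (SE 0.91) in males, and it did not pass edgeR's test (adjusted p = 0.742 and 1). With 1 liver left out, these values ran from -2.53 (without GCV liver 35) to -0.63 (without liver 33) in females and from -1.67 (without GCV liver 34) to -0.57 (without liver 32) in males.

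Cyp4a14, the microsomal hydroxylase of fatty acids, varied widely among livers of 1 group. In females, VEH livers had 249, 30.2 and 296 CPM and GCV livers 41.8, 12.4 and 47.5 CPM. The groups overlapped only through VEH liver 28. In males, VEH livers had 7.0, 55.0 and 113 CPM and GCV livers 7.47, 1.37 and 20.4 CPM, and VEH liver 24 was again among the GCV livers. The log2 fold change was -2.48 (SE 1.05, adjusted p = 0.667 in edgeR) in females and -2.60 (SE 1.06, adjusted p = 1) in males. With 1 liver left out, the male value ran from -3.73 (without GCV liver 34) to -1.68 (without VEH liver 26) and the female value from -3.04 (without VEH liver 28) to -2.06 (without VEH liver 29). Averaged over both sexes, it was -2.54 (SE 0.74, adjusted p = 0.756), where 2.06% of all genes were lower and 4.24% higher at an unadjusted p below 0.05 and 0.0% passed the adjusted threshold. The response of females minus that of males was 0.12 (SE 1.39, adjusted p = 1), with an approximate 95% interval of -2.61 to 2.84.

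Reads of Cyp4a14 may be shared with Cyp4a10, Cyp4a31 and Cyp4a32, relatives of its family. Cyp4a10 had the same order of livers in every group except female VEH, with 260, 24 and 217 CPM in female VEH, 44.0, 11.6 and 84.9 CPM in female GCV, 2.92, 57.3 and 86.3 CPM in male VEH and 5.21, 0.878 and 13.6 CPM in male GCV livers. Cyp4a31 went the other way in females, with a mean of 25.1 CPM (5.03 to 62.5) after GCV and 4.15 CPM (3.08 to 5.21) after VEH. In males its mean was 1.78 CPM after GCV and 1.57 CPM after VEH. With all 4 genes summed, the mean level was 367 CPM in female VEH, 107 CPM in female GCV, 116 CPM in male VEH and 20.5 CPM in male GCV livers.

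Acot1, the cytosolic thioesterase, was a gene of low counts. Its level was 7.37, 1.59 and 8.43 CPM in female VEH livers and 1.93, 0 and 3.02 CPM in female GCV livers, where liver 33 had no count and 3 counts would have been 2.32 CPM. In males, it was 2.68, 6.61 and 7.50 CPM after VEH and 1.13, 11.9 and 0.384 CPM after GCV. Here liver 32, the lowest male liver in the other 7 genes apart from Vnn1, was the highest. For Acot1, the log2 fold change was -1.58 (SE 1.06, edgeR adjusted p = 0.728) in females and -0.28 (SE 0.98, adjusted p = 1) in males, and without livers 33, 32 and 24 the male value was -3.12. Summed with Acot2 to Acot5, with which it may share reads, the mean was 176 CPM in female VEH, 114 CPM in female GCV, 40.8 CPM in male VEH and 39.9 CPM in male GCV livers.

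Pdk4, the kinase that shuts off pyruvate dehydrogenase, was at 16.6, 11 and 20.8 CPM in female VEH livers and at 3.86, 19.3 and 5.70 CPM in female GCV livers. The one high female GCV value belongs to liver 33. Male VEH livers had 7.58, 29.3 and 23.6 CPM, and male GCV livers 8.03, 3.51 and 8.45 CPM, with VEH liver 24 again among the GCV livers. For Pdk4, the log2 fold change was -0.86 (SE 0.63, edgeR adjusted p = 0.731) in females and -1.60 (SE 0.62, adjusted p = 1) in males. Over both sexes it was -1.23 (SE 0.44, adjusted p = 0.756). With 1 liver left out, it ran from -1.81 to -0.45 in females and from -1.98 to -1.23 in males. Pdk4 was called when livers 33, 32 and 24 were left out together, with -1.73 over both sexes (SE 0.26, edgeR adjusted p = 0.0296). This exclusion was chosen after the data were seen, and 0.0322% of all genes were called under it. Livers 33 and 24 were those through which the GCV and VEH groups of Pdk4 overlapped, so leaving them out itself separated the groups.

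Vnn1, the pantetheinase, was at 34.7, 23.3 and 14.1 CPM in female VEH livers and at 33.4, 3.09 and 12.1 CPM in female GCV livers. In males, it was at 7.23, 15.0 and 35.3 CPM after VEH and at 1.83, 3.32 and 15.8 CPM after GCV. Livers 30, 32 and 24 were the low males once more. The log2 fold change of Vnn1 was -0.52 (SE 0.82, edgeR adjusted p = 0.884) in females and -1.48 (SE 0.84, adjusted p = 1) in males. In limma-voom with sample quality weights, the male value was -3.07 and passed (adjusted p = 0.0494), the only call of these genes by that method in a comparison of GCV with VEH. The method called 0.667% of all genes in males. With 1 liver left out, edgeR's value ran from -1.55 (without GCV liver 31) to -0.14 (without liver 33) in females and from -2.87 (without GCV liver 34) to -0.69 (without VEH liver 26) in males.

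Fgf21, the fasting hormone, was near the detection limit, and its reads are given as counts. Female VEH livers had 7, 2 and 8 counts and female GCV livers 29, 0 and 1. Male VEH livers had 7, 35 and 50 counts and male GCV livers 10, 2 and 8. Liver 31 alone was high among females, and VEH livers 25 and 26 were high among males. For Fgf21, the log2 fold change was 1.5 (SE 1.19, edgeR adjusted p = 0.738) in females and -2.26 (SE 1.17, adjusted p = 1) in males. The difference between the sexes in this response was 3.76 (SE 1.67, adjusted p = 0.976), where 1.91% of all genes were higher at an unadjusted p below 0.05. Without liver 31, it was -0.10 and the female log2 fold change was -2.36.

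**Figure D2:**
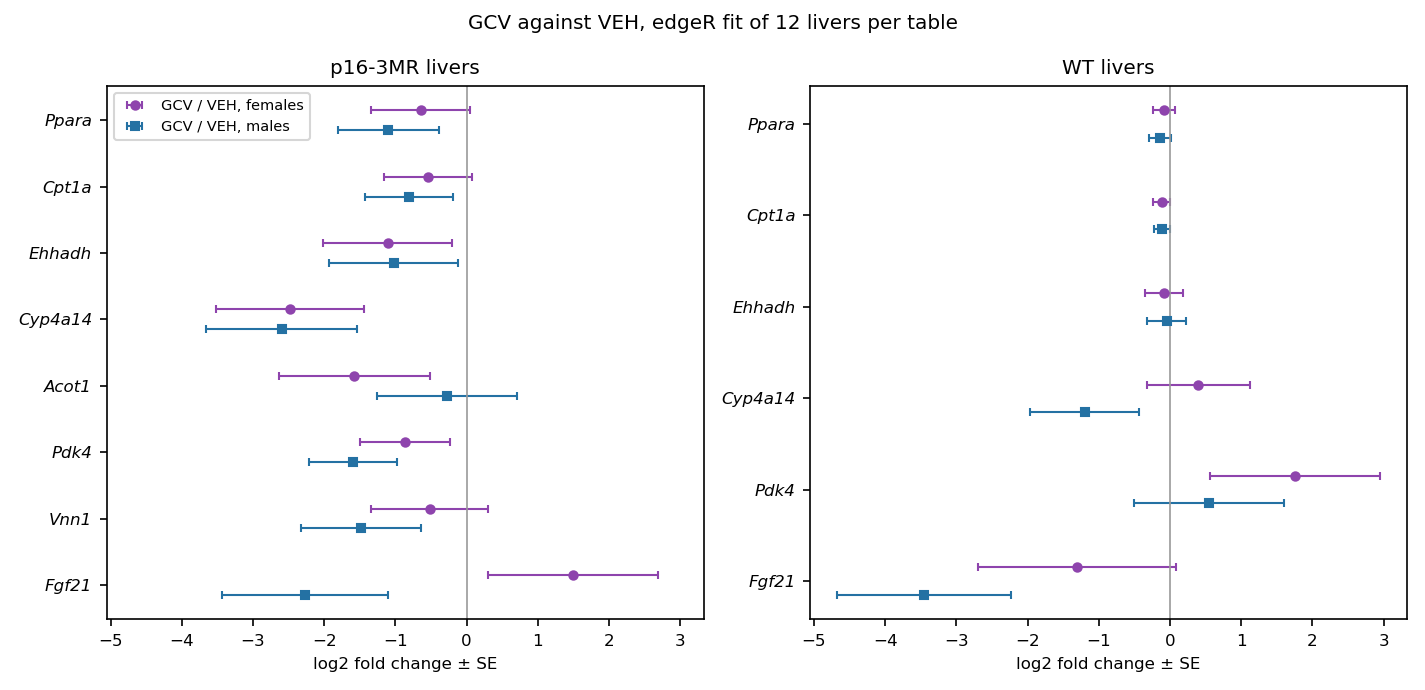
Log2 fold change of GCV over VEH for each gene, by sex and table, from edgeR's fit of 12 livers. Bars are standard errors. The p16-3MR values of Cyp4a14 are the lowest of the 8 genes in both sexes, and the WT values of Ppara, Cpt1a and Ehhadh lie between -0.14 and -0.05.

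Other genes of fatty acid oxidation were counted by lists. In the 19-gene list of mitochondrial β-oxidation, 16 genes were lower after GCV in p16-3MR females and 19 in males, with a median log2 fold change of -0.40 and -0.39, and none was called. Hadha, the α-subunit of the trifunctional protein, was at 237, 186 and 181 CPM in female VEH livers, 112, 47.9 and 195 CPM in female GCV, 91.6, 184 and 218 CPM in male VEH and 109, 58.2 and 145 CPM in male GCV livers. Of 14 peroxisomal genes, 11 were lower in females and 12 in males (median -0.20 and -0.52). Of 7 genes of omega-oxidation, 4 were lower in females and 6 in males (median -0.44 and -1.67). Of 5 ketogenesis genes, 4 were lower in each sex (median -0.56 and -0.58). No gene of these lists was called after GCV in p16-3MR livers of either sex, and the genes of a list share the livers that were low for the 8 genes.

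Lists further from oxidation were mixed in females. Of 13 genes of fatty acid uptake, activation and storage, 4 were lower in females and 10 in males (median 0.15 and -0.61). Of 15 receptor partners and cofactors, 9 were lower in females and 14 in males (median -0.20 and -0.38). In a list of 12 genes that respond to feeding, 10 were higher in females and 8 were lower in males (median 0.43 and -0.33). None of these genes was called. Pck1, which makes glucose during fasting, ranged from 153.9 to 490.8 CPM in females and from 65.1 to 444.9 CPM in males, and Fasn, which makes fat after feeding, from 38.6 to 958 CPM and from 36.7 to 1176 CPM. Igfbp1, a fasting-induced secreted protein, ranged from 6.71 to 164.5 CPM in females and from 2.66 to 64.5 CPM in males. Cd36, a fatty acid transporter, was at 166, 112 and 130 CPM in female VEH livers and at 101, 53.3 and 48.1 CPM in female GCV livers. These groups did not overlap, as for 7.35% of all genes in this direction. In males, Cd36 was at 97.7, 36.4 and 49.2 CPM after VEH and at 56.5, 183 and 37.5 CPM after GCV, with the highest values in livers 32 and 24. Angptl4, a secreted target of PPARα, was at 151 CPM in liver 33 and at 2.82 to 24.4 CPM in the other 11 livers.

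**Figure D3:**
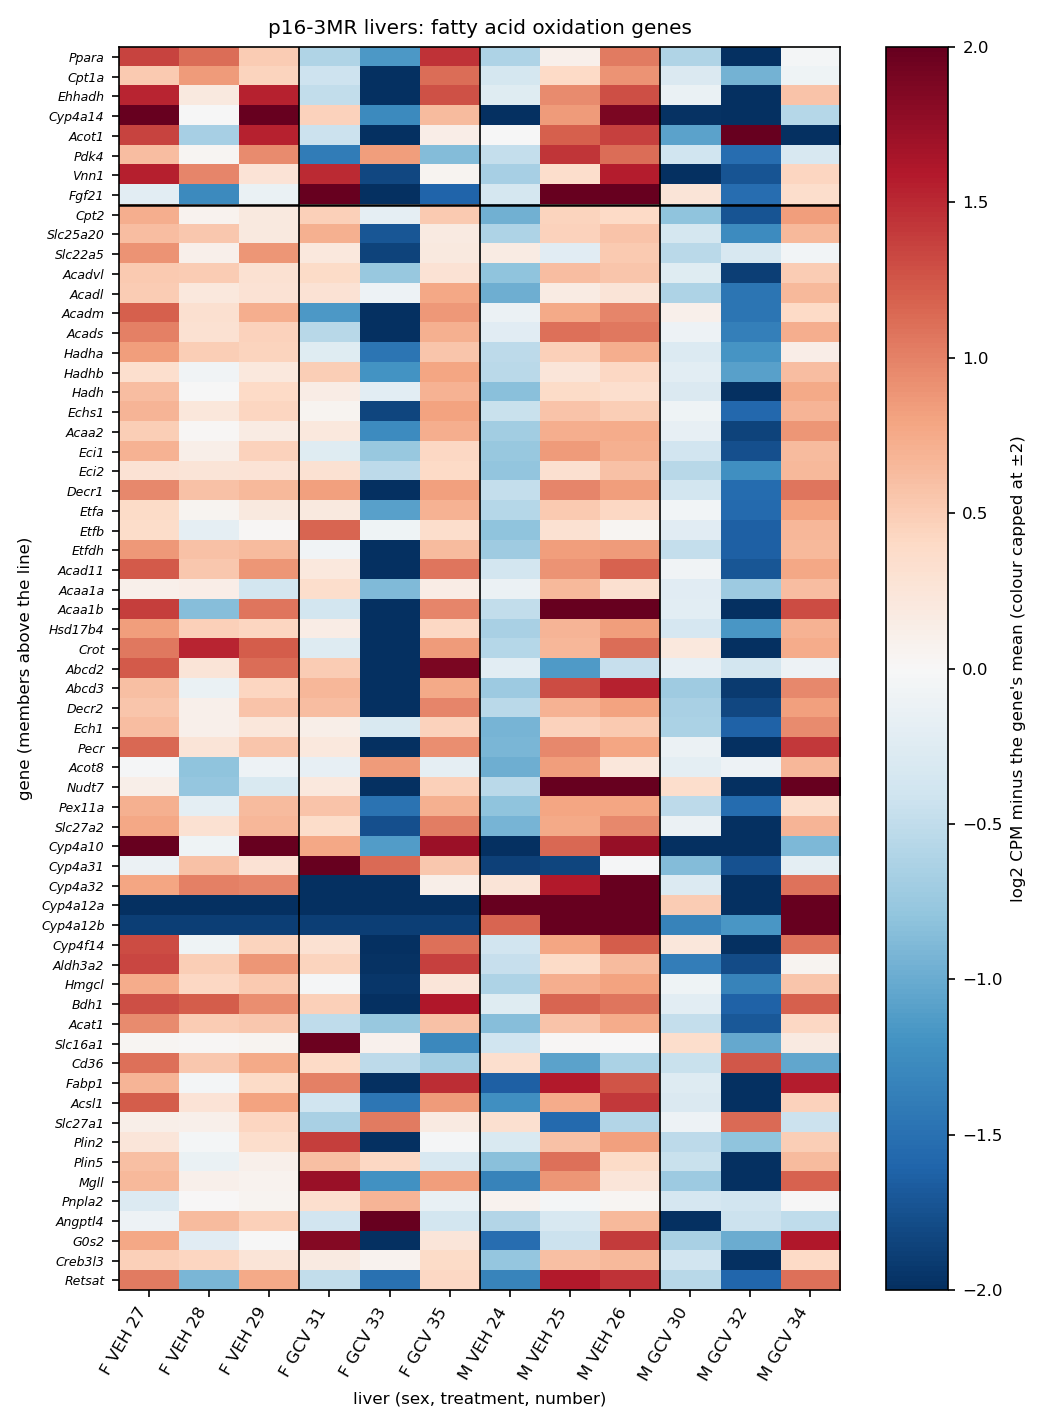
Level of each gene in each p16-3MR liver as the difference from the gene's mean over the 12 livers (log2 CPM), for the 8 genes (above the line) and the genes reported here of the oxidation, ketogenesis, uptake and storage lists, with the colour capped at 2. Livers 33 and 32 are low across most rows, and liver 24 less so.

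The same male livers were low in nearly every gene. Livers 30 and 32 (GCV) and 24 (VEH) were the 3 lowest males for 7 of the 8 genes, Acot1 being the exception, and for 49 of 57 other oxidation and PPARα pathway genes with a mean of at least 10 counts. Among all 12409 genes with such a mean they were the 3 lowest males in 22.0% and the 3 highest in 20.4%. These livers had the largest TMM factors of the males, with 1.19 (30), 1.80 (32) and 1.64 (24) against 0.931 to 1.04. A larger factor lowers the CPM of a liver. Their mitochondrial shares were the lowest, with 12.3% to 15.7% against 20.2% to 21.9%. They had the most genes detected, with 18015 to 18659 against 16962 to 17158. The part of scaling and RNA composition in these levels was not tested. In females, livers 31, 33 and 28 were the 3 lowest for 3 of the 8 genes and for 21 of the 57. The share of all genes with these female livers lowest is not given here, so the female counts are not set against a background. Which livers to count was seen in the data, so these are descriptions with no test.

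Some measures of cell composition moved with livers 32 and 24, and in part with liver 30. The hepatocyte marker sum was lowest and the Kupffer cell marker sum highest in livers 32 and 24, and the sum of 5 stellate cell markers was 958.6 CPM in liver 32 and 476.8 CPM in liver 24, against 179.8 to 396.6 CPM in the other livers. Liver 30 had 93382 CPM of hepatocyte markers, the highest sum of the males. Its sums of 903.9 CPM of Kupffer cell markers and 333.8 CPM of stellate cell markers came next after those of livers 32 and 24 among males, where the remaining 3 had 150.4 to 336.1 CPM and 179.8 to 299.0 CPM. In females, the fold change of GCV over VEH was below 0 for 6 of 6 Kupffer cell, 5 of 5 stellate cell, 4 of 5 endothelial and 5 of 6 lymphocyte markers and above 0 for 5 of 8 hepatocyte markers. The Kupffer cell marker sum was 107.5 to 322.1 CPM in female GCV and 291.1 to 932.0 CPM in female VEH livers. In males, the fold change was above 0 for 5 of 6 Kupffer cell, 3 of 5 stellate cell and 6 of 6 lymphocyte markers and below 0 for 5 of 5 endothelial and 6 of 8 hepatocyte markers. The sum of 5 cholangiocyte markers was 85.9 to 142.7 CPM in male GCV livers and 50.3 to 64.1 CPM in male VEH livers. In females it was 36.6 to 142.1 CPM after GCV and 34.7 to 98.0 CPM after VEH. The fold change of these markers was above 0 for 4 of 5 in females and 5 of 5 in males. For 4 adipocyte markers, which summed to 0 to 10.5 CPM, it was above 0 for 4 in females and 3 in males. None of the markers of these cell types was called in either sex. In bulk RNA, fewer hepatocytes and less of these messages in each hepatocyte cannot be told apart. Of 12 clock genes, none was called after GCV in either sex by edgeR's test. At an unadjusted p below 0.05, 6 of the 12 were higher and 2 lower in females, where 5.05% and 2.32% of all genes were, and 0 were higher and 1 lower in males, where 1.1% and 0.814% were. Dbp, an output gene of the clock, was at 0.938, 2.46 and 1.51 CPM in female VEH livers and at 0.964, 61.0 and 100 CPM in female GCV livers. Arntl, a core clock gene of the opposite phase, was at 28.3, 15.2 and 24.7 CPM in female VEH and at 11, 6.95 and 1.01 CPM in female GCV livers. These groups did not overlap, as for 7.35% of all genes in this direction. In males, Dbp was at 12.5, 2.32 and 0.625 CPM after VEH and at 3.24, 5.46 and 42.3 CPM after GCV. The part of cell composition, mitochondrial share and time of day in the levels of the 8 genes was not tested.

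Without livers 33, 32 and 24, the log2 fold change of Cyp4a14 after GCV was -2.16 in females and -2.62 in males, and -2.39 over both sexes (edgeR adjusted p = 0.145). The corresponding values of Pdk4 were -1.79 (adjusted p = 0.209) and -1.68 (adjusted p = 0.348). Both genes kept their direction in each sex in this fit, but the exclusion cannot serve as a check of it. It took out female GCV liver 33 and male VEH liver 24, through which the GCV and VEH groups of Pdk4 overlapped. Liver 24 was also the liver through which the male groups of Cyp4a14 overlapped. The female GCV, male GCV and male VEH groups each held fewer than 3 livers in this fit. Under the same exclusion, the female value of Cpt1a shrank and the male value of Acot1 grew in size, as given above. Male liver 30, which was low for most of the 8 genes, stayed in this fit. The part of cell composition in these values was not tested.

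The 8 genes were also compared between females and males of the p16-3MR mice. None was called after VEH, where 0.12% of all genes were, nor after GCV, where 0.0965% were, in edgeR's test. DESeq2 called none of the 8 either, and 0.457% and 0.604% of all genes. At an unadjusted p below 0.05, 1 of 8 was found after VEH and 0 after GCV, beside 2.74% and 8.41% of all genes. The mean level of Cyp4a14 was 192 ± 142 CPM (SD, n = 3) in female VEH, 58.2 ± 52.8 CPM in male VEH, 33.9 ± 18.9 CPM in female GCV and 9.73 ± 9.70 CPM in male GCV livers. Neighbours in this order overlapped. The log2 difference of females over males was 1.72 (SE 1.02, edgeR adjusted p = 1) after VEH and 1.84 (SE 1.04, adjusted p = 0.608) after GCV, and 1.78 (SE 0.73, adjusted p = 0.685) over both treatments, where 0.303% of all genes passed the adjusted threshold and 2.61% were higher at an unadjusted p below 0.05. With 1 liver left out, the Cyp4a14 difference ran from 1.22 to 2.63 after VEH and from 1.29 to 2.98 after GCV. For Fgf21, at low counts, the log2 difference after VEH was -2.69 (SE 1.18, adjusted p = 1). Among the listed pathway genes, 1 was called over both treatments. This was Cyp4a12a, a hydroxylase known from male livers, with a log2 difference of -8.91 (adjusted p = 0.0152), a value fitted with female livers at or near 0 that gives no bound.

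In WT livers, which lack the transgene, the GCV and VEH livers were close in Ppara, Cpt1a and Ehhadh and differed widely among males in Cyp4a14. In edgeR's test, 0 of 6 were called in females, where 0.00791% of all genes were, and 0 of 6 in males, where 0.0% were. DESeq2 called 0 as well, and 0.135% of all genes in females and 0.00791% in males. At an unadjusted p below 0.05, 0 of the 6 were found in females, beside 4.56% of all genes, and 1 in males, beside 5.06%. This was Fgf21 (log2 fold change -3.45, SE 1.22, edgeR adjusted p = 0.889). With 1 liver left out, the value ran from -6.24 to -2.10. Pdk4, at 0 to 5 counts, and Fgf21, at 0 to 24 counts, were too low for edgeR's usual expression filter, and 4 genes were well measured.

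Ppara was at 184.5, 158.6 and 186.2 CPM in female VEH livers and at 183.2, 179.8 and 136.6 CPM in female GCV livers. In males, it was at 148.8, 204.8 and 202.0 CPM after VEH and at 142.4, 218.5 and 141.6 CPM after GCV. The groups of each sex overlapped, with a log2 fold change of -0.09 (SE 0.16) in females and -0.14 (SE 0.16) in males. The approximate 95% intervals ran from -0.40 to 0.23 and from -0.46 to 0.17.

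Cpt1a was at 176.1, 161.3 and 184.3 CPM in female VEH livers and at 164.0, 173.5 and 143.7 CPM in female GCV livers, and at 144.2, 150.8 and 162.7 CPM in male VEH livers and at 128.6, 164.9 and 128.8 CPM in male GCV livers. Its log2 fold change was -0.12 (SE 0.12) in females and -0.11 (SE 0.12) in males. Ehhadh was at 58.5, 40.3 and 62.5 CPM in female VEH and 47.9, 51.8 and 52.5 CPM in female GCV livers. In males, Ehhadh was at 18.6, 38.0 and 60.7 CPM after VEH and at 29.6, 49.2 and 35.1 CPM after GCV, a wider spread than in females. Its log2 fold change was -0.08 (SE 0.26) in females and -0.05 (SE 0.27) in males.

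Cyp4a14 varied more among WT males of 1 group than the other well-measured genes. Female VEH livers had 320, 157 and 324 CPM and female GCV livers 359, 360 and 335 CPM. Every GCV liver was thus above every VEH liver, as for 5.05% of all genes in this direction. This was a log2 fold change of 0.40 (SE 0.72, edgeR adjusted p = 1). With 1 liver left out, this female value ran from 0.13 to 0.56. Male VEH livers had 6.12, 200 and 219 CPM and male GCV livers 5.35, 157 and 15.6 CPM. Livers GCV 1, GCV 3 and VEH 1 were thus far below the other males. The male log2 fold change was -1.20 (SE 0.76, adjusted p = 0.889), and females minus males gave 1.60 (SE 1.05, adjusted p = 0.982), where 0.00791% of all genes were called. Without male GCV liver 2, these values were -3.76 and 4.16, and without male GCV liver 1 they were -0.69 and 1.09.

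The same 3 male livers were lowest in all 4 well-measured genes and in 24 of 35 other pathway genes with a mean of at least 10 counts. They were the 3 lowest males in 12.6% of all 8613 genes with such a mean, and the 3 highest in 12.1%. They also had the smallest library totals of the males, with 3766016 (GCV 1), 3782717 (GCV 3) and 4499887 (VEH 1) counts against 4963575 to 5667904, and the largest shares of counts in the top 10 genes, with 27.2% to 29.5% against 23.2% to 25.4%. The part of depth and RNA composition in these levels was not tested. Cyp4a10 was low in the same livers, with 30.5, 36.0 and 27.9 CPM in GCV 1, GCV 3 and VEH 1 and 150 to 217 CPM in the other males. No such split was seen in WT females, where the 3 lowest livers differed among the 4 genes.

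**Figure D4:**
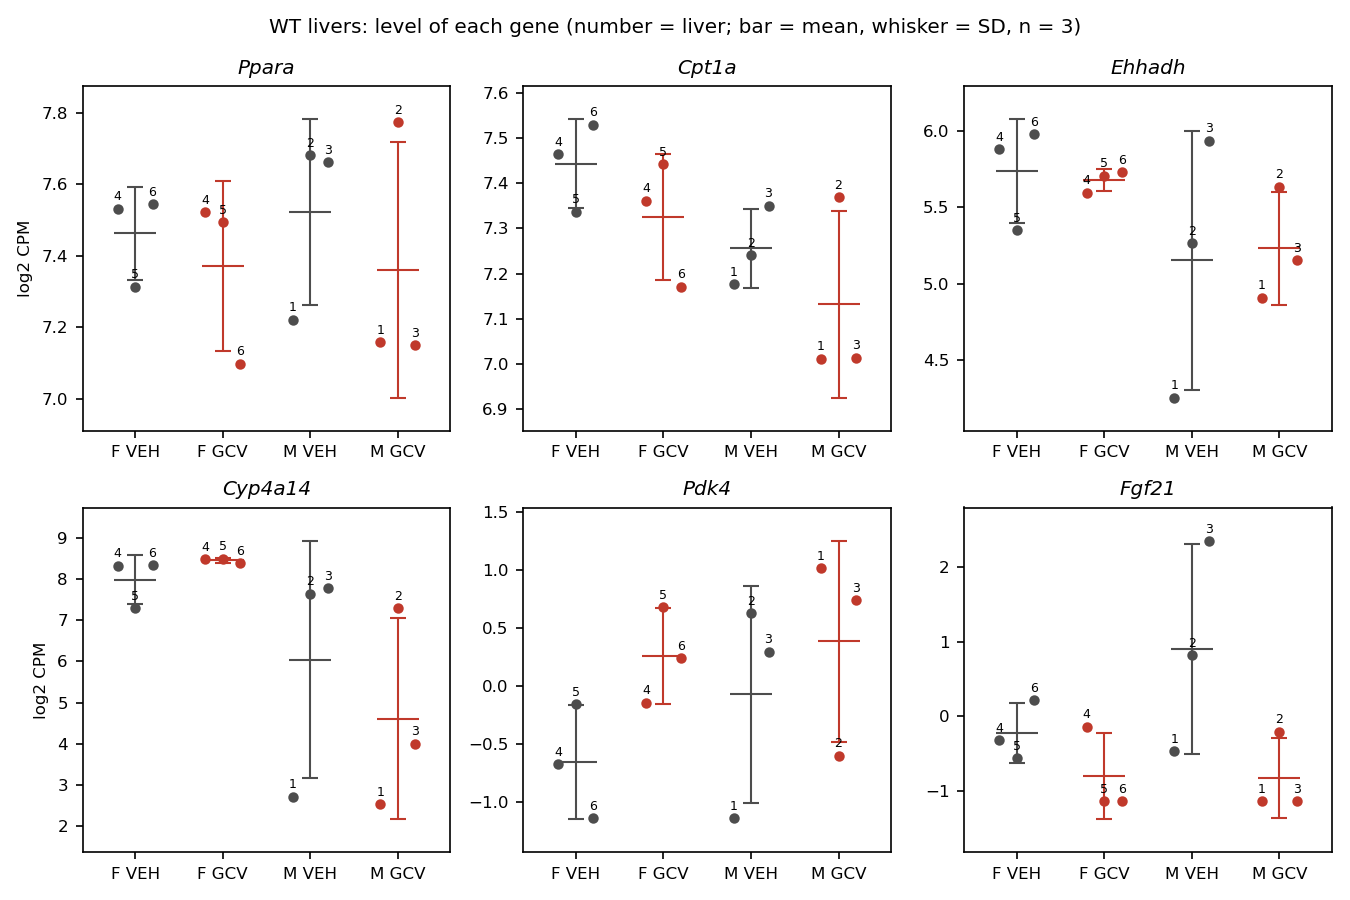
Level of each measurable gene in the 12 WT livers (log2 CPM), by sex and treatment. Points are livers, dashes are group means and error bars are SDs. Cyp4a14 is at 5.35 to 15.6 CPM in male livers GCV 1, GCV 3 and VEH 1, far below every other liver.

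Among other WT pathway genes, none was called after GCV in either sex. All 11 mitochondrial β-oxidation genes with a label of their own were lower in males (median log2 fold change -0.17), and 4 of the 11 in females (median 0.04). Of 9 peroxisomal genes, 7 were lower in males (median -0.27) and 4 in females (median 0.06). All 7 omega-oxidation genes were lower in males (median -0.58) and 3 in females (median 0.08). The median over all genes was 0.002 in males and 0 in females. The male medians of these lists include livers GCV 1 and GCV 3.

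Among the well-measured genes, females and males of the WT mice differed most in Cyp4a14, which did not pass the adjusted threshold in edgeR's test. At an unadjusted p below 0.05, 1 of 6 genes was found after VEH, 1 after GCV and 3 over both treatments, beside 15.2%, 12.8% and 20.1% of all genes. The mean level of Cyp4a14 was 351 ± 14.1 CPM (SD, n = 3) in female GCV, 267 ± 95.2 CPM in female VEH, 141 ± 118 CPM in male VEH and 59.3 ± 84.8 CPM in male GCV livers. No neighbours in this order passed the test. The log2 difference of females over males was 0.91 (SE 0.73, adjusted p = 0.602) after VEH, where 3.82% of all genes were called. After GCV it was 2.5 (SE 0.78, adjusted p = 0.0945), where 3.24% were called, and every female liver was above every male liver, as for 9.41% of all genes in this direction. With 1 liver left out, the difference ran from 0.35 (without male VEH liver 1) to 1.36 (without male VEH liver 3) after VEH and from 1.99 (without male GCV liver 1) to 5.06 (without male GCV liver 2) after GCV. Over both treatments it was 1.70 (SE 0.53, adjusted p = 0.053), where 7.94% of all genes were called. This difference passed the threshold in several alternatives, such as 1.42 (adjusted p = 0.0152) without male VEH liver 1, where 9.94% of all genes were called, and 2.98 (adjusted p = 0.000153) without male GCV liver 2, where 7.7% were.

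No other WT member of the 8 genes passed the test between the sexes. Over both treatments, the log2 difference of females over males was 0.19 (SE 0.08, adjusted p = 0.207 in edgeR) in Cpt1a and 0.42 (SE 0.19, adjusted p = 0.211) in Ehhadh. In Ppara it was -0.07 (SE 0.16) after VEH and -0.02 (SE 0.16) after GCV. For Fgf21, at 1 to 24 counts, it was -2.28 after VEH (SE 1.03, adjusted p = 0.290). With 1 liver left out, this Fgf21 value ran from -2.77 to -0.91.

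Several WT genes of the surrounding pathway did pass the test between the sexes. Of 9 peroxisomal genes, 1 was higher and 4 lower in females after VEH, and 1 was higher and 2 lower after GCV. Over all genes, 3.82% were called after VEH and 3.24% after GCV. Abcd2, a peroxisomal fatty acid transporter, was higher in females, with log2 differences of 2.66 after VEH (edgeR adjusted p = 0.00085, but 0.0517 in DESeq2) and 3.19 after GCV (adjusted p = 0.000267). With 1 liver left out, these ran from 2.17 to 3.23 after VEH and from 2.78 to 4.51 after GCV. Nudt7, which breaks down coenzyme A in peroxisomes, was lower in females, with -1.40 after VEH (adjusted p = 9.47e-06) and -1.52 after GCV (adjusted p = 3.02e-06).

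Of 7 omega-oxidation genes, 1 was higher and 2 lower in females after either treatment. The share called over all genes, for this and the lists below, was 3.82% after VEH and 3.24% after GCV. Cyp4a12a and Cyp4a12b, male-typical relatives of Cyp4a14, were at 221 ± 34.9 and 95.3 ± 7.31 CPM in male VEH livers and at 0.157 and 0.205 CPM in female VEH livers, which is below the level of 3 counts. Cyp4f14 was higher in females, by 0.37 after VEH (adjusted p = 0.0300) and 0.57 after GCV (adjusted p = 0.00057). The call after VEH was lost in 6 of 17 alternatives, namely in the fit of only the 6 livers and without female GCV liver 4, female VEH liver 5 or 6 or male VEH liver 2 or 3 (adjusted p = 0.0509 to 0.137), and the call after GCV in 0 of 17. Cyp4a10 was higher in females after GCV by 1.58 (SE 0.51, adjusted p = 0.11), with no overlap, and like Cyp4a14 it did not pass. It passed in 4 of 17 alternatives, with limma-voom, in the fit of only the 6 livers and without male GCV liver 2 or male VEH liver 1, and with 1 liver left out it ran from 1.23 to 2.72 (adjusted p = 0.000404 to 0.368 over all alternatives). Of 8 genes of uptake, activation and storage, 3 were lower in females after VEH and none was called after GCV. Of these, Retsat, a retinol saturase (-0.61, adjusted p = 0.0442), lost its call in 9 of 17 alternatives, 7 of which left out 1 liver (female GCV 4 or 5, any female VEH liver, or male VEH 2 or 3), with adjusted p of up to 0.251. Of 8 receptor partners and cofactors, Lpin1 was higher in females after VEH (1.28, adjusted p = 0.00741) and Ppargc1a was higher after GCV (0.76, adjusted p = 0.0365). Over 17 alternatives, the call of Lpin1 was lost in 3, which left out female VEH liver 4, male VEH liver 2 or male VEH liver 3 (adjusted p = 0.0506 to 0.0624), and that of Ppargc1a in 6, which each left out 1 of the 6 GCV livers (adjusted p = 0.0512 to 0.143). No mitochondrial β-oxidation or ketogenesis gene was called between the sexes after either treatment.

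**Figure D5:**
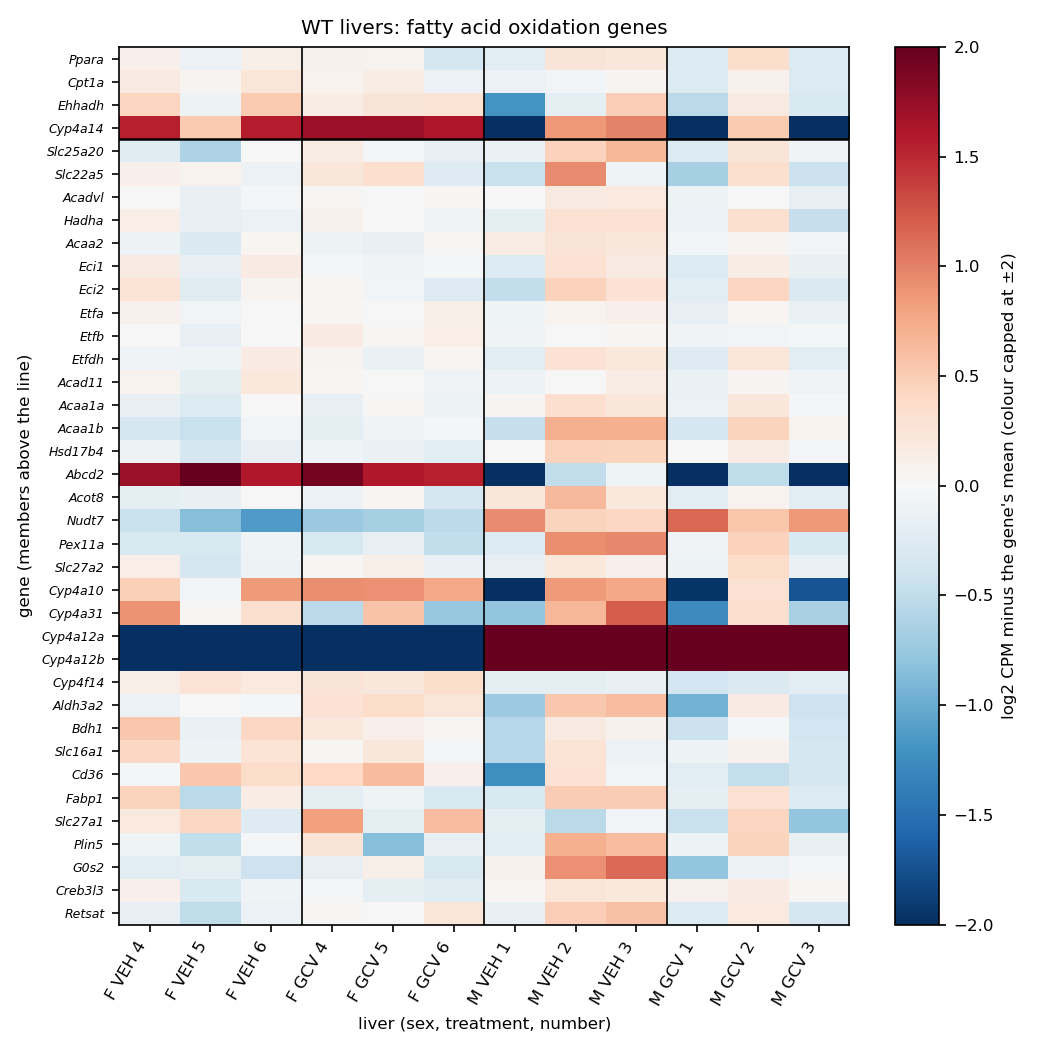
Level of each gene in each WT liver as the difference from the gene's mean over the 12 livers (log2 CPM), for the 4 well-measured genes (above the line) and the listed genes reported here that have a label of their own, with the colour capped at 2. Male livers GCV 1, GCV 3 and VEH 1 are below the other males in most rows.

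The tables were scaled separately, so levels set across them are descriptions. Ppara lay between 2.93 and 52.8 CPM in p16-3MR livers and between 136.6 and 218.5 CPM in WT livers. Pdk4 went the other way, with 3.51 to 29.3 CPM in p16-3MR livers and 0 to 1.57 CPM in WT livers. Cpt1a overlapped, with 24.7 to 241 CPM and 128.6 to 184.3 CPM. Genotype, batch, age, treatment length and the genes held by each table differ at once and cannot be told apart.

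The genes whose log2 CPM followed each of the 8 most closely over the 12 livers of a table were named by Pearson's r, as a description. Cyp4a10 was the closest to Cyp4a14 in both tables, with r = 0.982 in p16-3MR and 0.981 in WT livers, and these genes may share reads. In p16-3MR livers, Ppara was followed most closely by Sec14l4 (0.982), Cpt1a by Col4a3bp (0.985), Ehhadh by Dpys and Maob (both 0.981), Acot1 by Mmp2 (0.909), Pdk4 by Zbtb44 (0.910), Vnn1 by Bcl9l (0.921) and Fgf21 by Fermt2 (0.972). In WT livers, Eci2, an enzyme of fatty acid oxidation, was among the genes closest to Ppara (0.910). The closest to Cpt1a was Spg20 (0.914), and the third closest to Ehhadh was Cyp4a14 itself (0.870). The points of each correlation share library depth and composition. Of the 3 closest genes in p16-3MR livers, 0 to 2 remained by Spearman's rho and 0 to 3 without liver 33, which was 0 of 3 for Ehhadh, Acot1 and Pdk4. In WT livers, 0 to 2 of the 3 remained by Spearman's rho. It was 0 of 3 for Cyp4a14, Ehhadh and Fgf21, so that Cyp4a10 was not among the 3 closest to Cyp4a14 by that measure.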

How the data were processed

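Of 24 mouse livers sequenced by Smart-3SEQ, the authors deposited estimated counts per gene in 2 tables, after FastQC 0.11.9, Trim Galore 0.6.10 and Salmon 1.10.3 on mm10 per the labels, and left out genes with fewer than 3 reads. The authors compared groups with DESeq2. All columns were mapped to livers (0 were not). Ensembl IDs of the p16-3MR table were matched to 1 symbol for 21652 of 21755 genes. In the WT table, 10496 of 12643 labels matched 1 symbol once 9 missing letters were allowed for, 2067 matched several and 80 none.

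Each table was fitted separately in edgeR 4.0.16 (R 4.3.3), with TMM scaling, 1 mean per group over its 12 livers and the quasi-likelihood test. Benjamini-Hochberg adjustment ran over all genes, with calls at an adjusted p below 0.05. Log2 CPM used a prior count of 2. Approximate 95% intervals take the standard error as normal. Alternatives used limma 3.58.1, DESeq2 1.42.0, other scaling, a low-count filter, fewer livers, summed relatives, an adjusted p below 0.1 and a block for the WT replicate numbers. Contrasts averaged over both sexes or treatments, and the joint exclusion of livers 33, 32 and 24, were added after the data were seen. Scripts were tested on simulated data.

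The 8 genes and the lists were chosen with earlier results of these data known. Named genes are the 8 genes, Cyp4a10, Angptl4, Hadha, Cd36, Rxra and markers of feeding state and time of day whatever their values, up to 4 called genes per list and comparison, taken by size of fold change among genes averaging 10 or more counts, and the 3 genes most like each of the 8 per table. Limits of 3 counts cover counting error only, since amplified reads are not independent molecules. P-values measure the spread among livers, which the labels call biological replicates. Some genes of the lists and of the rule for named genes are not reported here.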

Additional observations from a re-analysis of the deposited data

How the results depend on the processing

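Members called numbered 0 in every comparison, and the count became 1 for p16-3MR GCV versus VEH in males with limma-voom and sample quality weights (Vnn1, -3.07, adjusted p = 0.0494) and 1 over both sexes without livers 33, 32 and 24 (Pdk4, -1.73, edgeR adjusted p = 0.0296, with 0.0322% of all genes called). For WT females versus males after GCV it was 1 at an adjusted p below 0.1 (4.63% of all genes) and 1 in the fit of only the 6 livers (Cyp4a14, 2.49, edgeR adjusted p = 0.000412, with 4.52% of all genes called), and with each liver left out it ran from 0 to 1, with 2.29% to 4.33% of all genes called (1 without male GCV liver 2 or male VEH liver 1). For WT females versus males over both treatments it was 1 at an adjusted p below 0.1 (11.1% of all genes) and 1 with limma-voom (Cyp4a14, 2.67, adjusted p = 0.0166, with 9.14% of all genes called), and with each liver left out it ran from 0 to 2, with 6.23% to 9.94% of all genes called. The calls came without female VEH liver 5, male GCV liver 2 or male VEH liver 1, and 2 genes, Cyp4a14 and Ehhadh (0.66, adjusted p = 0.0183), were called without male VEH liver 3. In all other comparisons, leaving out a liver gave 0 to 0. The cause of these changes was not tested.

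WT replicate numbers were shared between treatments. After group means were removed, same-numbered livers correlated from -0.057 to 0.0018 in females and from -0.066 to 0.283 in males. Different-numbered livers correlated from -0.045 to 0.085 in females and from -0.349 to 0.170 in males. So few pairs cannot settle whether the numbers pair the livers. With the replicate block, 1 member was called in WT females and 1 in WT males (Cyp4a14, 0.45 and -1.57), and the count over all genes became 60 higher and 60 lower in females and 48 higher and 32 lower in males. No block was possible for p16-3MR livers, whose numbers are not shared.

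Alternatives were run for 50 fold changes of the 8 genes, which do not cover every gene in every comparison. Of the values they gave, 855 kept their direction and side of the threshold, 13 passed it and 22 reversed. With each liver left out, the reversed ones ran, in p16-3MR livers, from -2.36 to 2.09 (Fgf21, GCV in females), -2.82 to 0.24 (Acot1, GCV in males), -0.80 to 1.26 (Cyp4a14, females minus males), -0.10 to 4.35 (Fgf21, females minus males), -2.78 to 1.67 (Fgf21, females versus males after GCV) and -0.068 to 1.72 (Ppara, same comparison). In WT livers they ran from -0.16 to 0.041 (Ppara, GCV in females), -0.25 to 0.034 (Ehhadh, GCV in females), -0.37 to 0.42 (Ehhadh, GCV in males, 0.039 with the replicate block), -0.20 to 0.0065 (Ppara, females versus males after VEH) and -0.12 to 0.22 (Ppara, after GCV, 0.069 with limma-voom). Low counts limit Fgf21 and Acot1 in p16-3MR livers and Fgf21 and Pdk4 in WT livers.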
